A study of Mus musculus with 7 samples.

Results

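Secreted plasma proteins of yolk sac endoderm were followed through 8 genes: Ttr, Afp, Trf, Spink1, Serpinf2, F2, Spp2 and Tfpi. They were chosen by name, with earlier results of these data known. A gene was read only from probe sets that the platform annotation gives to that symbol alone, which left 7 of the 8 genes with 15 probe sets, among 12393 genes on the array. The single probe set of Trf, the gene of the iron carrier transferrin, is also annotated to Srprb, so no level is given for it. Each value below is from the gene's brightest probe set unless another is named.

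Whole C57BL/6 mouse embryos of embryonic day 9 were profiled on Affymetrix 430A arrays in a search for genes downstream of ADNP, a homeodomain protein that embryos need to develop past mid-gestation. There were 2 arrays of knockout (Adnp -/-) embryos, 3 of heterozygous (Adnp +/-) embryos and 2 of wild-type (Adnp +/+) littermates. Every array carried RNA pooled from 2 littermates of one genotype, 14 embryos in all, with the sex given as mixed. The embryos had been parted from yolk sac and amnion before RNA extraction, and genotype was read by PCR on yolk sac DNA for Adnp and the neomycin resistance gene. The pool is the replicate, and the sources used here do not give how litters were divided among pools. The median signal of an array was 55.5 to 57.5, and Pearson's r between arrays was 0.925 to 0.982 across genes (genes are not independent replicates). Adnp has a single probe set here, which is annotated to Dpm1 as well, so the genotypes rest on the labels. With so few arrays the precision is limited throughout.

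Before the liver forms, the visceral endoderm, the epithelium that faces the maternal side of the yolk sac, makes many of the proteins that the liver later secretes into plasma. It takes up maternal nutrients through endocytic receptors and passes carriers of lipid, vitamins, hormones and iron to the embryo. By the stage studied here the foregut endoderm that gives rise to the liver lies inside the embryo itself and begins to transcribe some of the same genes. In RNA of whole embryos, more cells of a type and more RNA per cell cannot be told apart.

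Promoters of 4 of the genes are shown because the genes lie on 4 different chromosomes and share a tissue, so that any short sequence they have in common can be read directly. The stretches run from 250 bases before to 50 bases after the start of transcription, 5′ to 3′ on the strand of the gene, from RefSeq on GRCm38.p6. They are chr5:90490464-90490763 (plus strand) for Afp, chr11:75439452-75439751 (minus strand) for Serpinf2, chr2:91636408-91636707 (minus strand) for F2 and chr1:88406760-88407059 (plus strand) for Spp2. Capitals mark matches, on either strand, to GTTAAT or GTTAAC, which are parts of the sequence bound by hepatocyte nuclear factors of the HNF1 family, and to TNTTTAC, the core letters of forkhead (FOXA) sites.
Afp: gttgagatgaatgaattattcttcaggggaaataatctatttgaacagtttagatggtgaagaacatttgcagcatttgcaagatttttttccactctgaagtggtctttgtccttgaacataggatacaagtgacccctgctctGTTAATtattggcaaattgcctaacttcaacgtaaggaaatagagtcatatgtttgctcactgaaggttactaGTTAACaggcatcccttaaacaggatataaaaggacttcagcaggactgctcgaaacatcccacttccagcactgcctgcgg
Serpinf2: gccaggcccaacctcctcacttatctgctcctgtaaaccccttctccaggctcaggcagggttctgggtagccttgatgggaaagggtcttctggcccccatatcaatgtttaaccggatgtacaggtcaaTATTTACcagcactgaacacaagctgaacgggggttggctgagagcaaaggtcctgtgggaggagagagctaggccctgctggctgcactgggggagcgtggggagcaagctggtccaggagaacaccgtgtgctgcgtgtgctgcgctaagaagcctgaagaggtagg
F2: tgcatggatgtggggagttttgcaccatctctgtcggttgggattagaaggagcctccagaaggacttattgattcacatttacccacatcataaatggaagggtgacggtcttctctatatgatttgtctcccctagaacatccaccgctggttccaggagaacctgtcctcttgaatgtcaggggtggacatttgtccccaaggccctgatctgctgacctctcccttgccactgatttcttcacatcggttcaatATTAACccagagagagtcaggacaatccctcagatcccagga
Spp2: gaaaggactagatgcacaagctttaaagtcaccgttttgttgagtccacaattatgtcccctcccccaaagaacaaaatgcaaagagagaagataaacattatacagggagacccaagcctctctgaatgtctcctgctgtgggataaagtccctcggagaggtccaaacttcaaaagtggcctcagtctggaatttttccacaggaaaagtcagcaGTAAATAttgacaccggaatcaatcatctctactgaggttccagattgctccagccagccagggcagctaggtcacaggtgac

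The Afp promoter held GTTAAT 105 bases and GTTAAC 32 bases before the start. F2 held GTTAAT on the opposite strand, 8 bases after the start. Serpinf2 held TNTTTAC 119 bases before the start, and Spp2 held it on the opposite strand 33 bases before. The letters CAAAGTCCA, bound by hepatocyte nuclear factors of the HNF4 family, were not in these windows. Of the 8 genes, 5 had a promoter in the table, and the promoters of Tfpi, the fifth of them, held none of these letters. Over all 32851 promoters of the same length, 7.1% held GTTAAT, 3.05% held GTTAAC, 12.4% held TNTTTAC and 0.475% held CAAAGTCCA. The 4 motifs were picked after these promoters had been seen, and a match in letters is not evidence of binding.

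All 7 measured genes had their 2 highest signals in the knockout pools, an order that 14.2% of the genes bright enough to be tested and 12.8% of all 12393 genes showed. Because the genes were chosen with earlier results of these data known, such shares are background and not a test of the set. Afp, Spink1 and Serpinf2 rose in the knockout against both heterozygous and wild-type embryos. Of all tested genes 3.11% rose against heterozygotes and 1.96% against wild type. Ttr rose against heterozygous embryos, and against wild type its difference was large but did not pass the test. F2, Spp2 and Tfpi were higher in both knockout pools without passing the test in either comparison. Differences are given on the log2(signal + 3.8) scale. The p-values are limma's, adjusted over all 8019 genes past a brightness filter, and the threshold is 0.05. With no filter 0 of the 7 genes passed against wild type and 3 passed against heterozygotes.

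**Figure D1:**
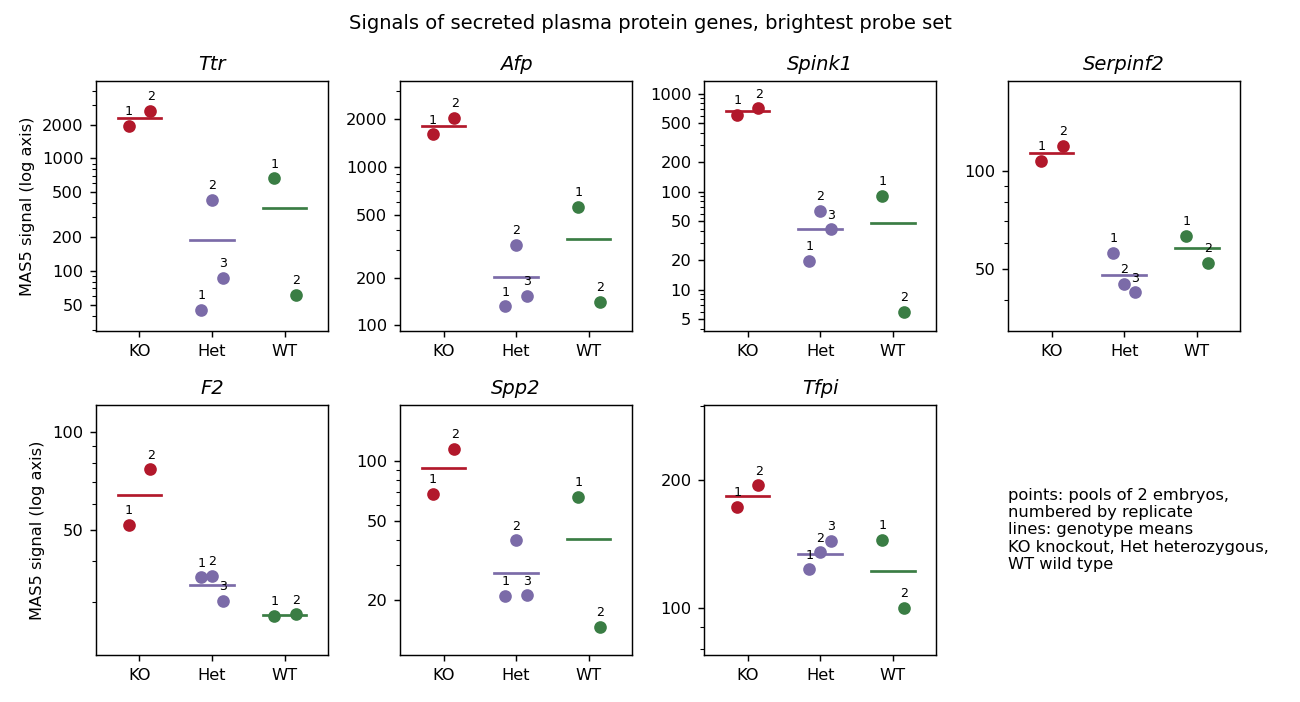
MAS5 signals of the 7 measured genes on log axes, 1 point per pool of 2 embryos, with pools numbered by replicate and a line at the mean of each genotype. In every panel both knockout pools lie above all heterozygous and wild-type pools, and Ttr, Afp, Spink1 and Spp2 spread widely among the others.

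Among the carriers, Ttr encodes transthyretin, which carries thyroid hormone and, with retinol-binding protein, vitamin A. Its signal was 1937 and 2654 in knockout replicates 1 and 2, 44.7, 431.3 and 86.3 in heterozygous replicates 1 to 3, and 665.5 and 60.8 in wild-type replicates 1 and 2. The knockout pools lay close together and far above the others, whereas heterozygous and wild-type pools overlapped and were each widely spread. The lower knockout pool was 2.91 times the highest other pool. The mean was 2295 ± 507 in the knockout (SD, n = 2), 187.4 ± 212 in heterozygotes (n = 3) and 363.2 ± 428 in wild type (n = 2). Ttr was 4.20 (log2) above heterozygotes (SE 0.96, limma, adjusted p = 0.0340) and 3.45 above wild type (SE 1.05, 95% interval 1.11 to 5.78, limma, adjusted p = 0.109).

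The size of the Ttr difference depends on the wild-type pool it is set against. The knockout mean was 3.45 times wild-type replicate 1 and 37.7 times wild-type replicate 2, since those pools differed 10.9-fold from each other. Heterozygous pools differed 9.65-fold at most and knockout pools 1.37-fold. Without wild-type replicate 1, the difference from wild type was 5.14 with a limma adjusted p of 0.0220, and without wild-type replicate 2 it was 1.76. The call against heterozygotes was lost without knockout replicate 1, knockout replicate 2, heterozygous replicate 1 (adjusted p = 0.0716) or heterozygous replicate 3 (adjusted p = 0.0986).

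The other probe sets of Ttr showed the same order of pools. Probe set 1451580_a_at read 1136 and 1341 in the knockout, 14.9, 147.5 and 54.4 in heterozygotes, and 277.2 and 16.3 in wild type. Probe set 1455913_x_at read 978.5 and 1130.3 in the knockout, 16.7, 158.8 and 36.0 in heterozygotes, and 274.1 and 26.1 in wild type. On both, heterozygous replicate 2 and wild-type replicate 1 again stood above the rest of their genotypes. Tested among all probe sets past the filter, their differences from wild type were 4.04 (limma, adjusted p = 0.1001) and 3.53 (adjusted p = 0.111).

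Afp encodes alpha-fetoprotein, the main plasma protein of the fetus and a classical marker of visceral endoderm. Its signal was 1605 and 2025 in the knockout, 131.4, 323.3 and 152.6 in heterozygotes, and 559.7 and 140.5 in wild type. The lower knockout pool was 2.87 times the highest other pool, wild-type replicate 1. Afp rose by 2.66 (log2) against wild type (SE 0.55, limma, adjusted p = 0.0274) and by 3.25 against heterozygotes (SE 0.50, adjusted p = 0.00621). The call against wild type was lost without knockout replicate 1 (adjusted p = 0.127), knockout replicate 2 (0.184), heterozygous replicate 3 (0.0521) or wild-type replicate 2, where the difference was 1.68 (adjusted p = 0.149). The call against heterozygotes was lost without either knockout pool.

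Afp has 5 probe sets on the array, and they differed widely in brightness. Probe set 1416646_at rose as well, by 2.57 against wild type when tested among probe sets (limma, adjusted p = 0.0470). Probe set 1436879_x_at read 203.7 and 465.7 in the knockout, 41.0, 101.0 and 46.7 in heterozygotes, and 129.0 and 51.9 in wild type, a difference of 1.86 that did not pass (adjusted p = 0.102). The remaining 2 were below the brightness filter. Probe set 1436880_at lay between 1.2 and 2.4 on every array, and 1436881_x_at read 3.0 and 55.9 in the knockout, 31.7, 5.3 and 3.8 in heterozygotes, and 26.9 and 27.2 in wild type, with no separation of genotypes.

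Spink1, a secreted inhibitor of trypsin best known from the pancreas, had the largest difference from wild type of the 7 genes on the log2 scale. It read 613.7 and 710.2 in the knockout, 19.9, 64.1 and 41.4 in heterozygotes, and 90.5 and 6.0 in wild type. Wild-type replicate 2 lies near the constant of 3.8 added before log2, which partly sets the size of the difference. It was 4.71 with a constant of 1 and 3.80 with 16. The lower knockout pool was 6.78 times the highest other pool, the widest such gap among the 7. Spink1 lay above the brightness filter only through the knockout pools (mean log2 signal 5.20 in the others, limit 5.25). With no filter its limma adjusted p was 0.0501 against wild type, which did not pass, and 0.0397 against heterozygotes. With the filter Spink1 rose by 4.45 against wild type (SE 0.82, limma, adjusted p = 0.0181) and by 3.99 against heterozygotes (SE 0.75, adjusted p = 0.0145). Both calls were lost without either knockout pool, and the difference from wild type was 2.82 without wild-type replicate 2 and 6.08 without wild-type replicate 1, passing in both fits.

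Of the clotting and fibrinolysis genes, Serpinf2 encodes antiplasmin, the main inhibitor of the clot-dissolving protease plasmin. It read 107.3 and 119.4 in the knockout, 55.9, 44.9 and 42.3 in heterozygotes, and 63.2 and 52.2 in wild type. All pools of a genotype lay close together, and the lower knockout pool was 1.70 times the highest other pool. Serpinf2 rose by 0.93 against wild type (SE 0.21, limma, adjusted p = 0.0437) and by 1.19 against heterozygotes (SE 0.19, adjusted p = 0.00800). The call against wild type held in 1 of the 7 fits that left out 1 array, the fit without heterozygous replicate 1, with differences of 0.80 to 1.06 over the 7. The call against heterozygotes was lost without either knockout pool.

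F2 encodes prothrombin, the precursor of the protease that turns fibrinogen into fibrin. It read 51.6 and 76.5 in the knockout, 35.7, 36.0 and 30.2 in heterozygotes, and 27.2 and 27.5 in wild type. F2 was the only one of the 7 genes in which the genotypes formed 3 separate ranges, with heterozygotes between knockout and wild type. Over all genes past the filter, 9.12% had every heterozygous pool above both wild-type pools, and over all 12393 genes 9.13%. These shares disregard the knockout pools. The share of genes with all 3 ranges in this order was not counted, and an effect of gene dose was not tested. The knockout was 1.10 above wild type (SE 0.27, limma, adjusted p = 0.0542) and 0.82 above heterozygotes (SE 0.24, adjusted p = 0.0749), and neither difference passed. Against wild type F2 passed with no intensity trend (limma, adjusted p = 0.0357), with array weights (0.0302) and with the median over probe sets (0.0458). Against heterozygotes it passed with no intensity trend (0.0494). It did not pass against wild type with quantile normalization (0.0605), a replicate block (0.144) or any 1 heterozygous pool left out (0.0515 to 0.0795). F2 lay above the brightness filter only through the knockout pools, and with no filter neither difference passed (0.114 and 0.144). Heterozygotes were 0.27 above wild type (95% interval -0.27 to 0.81, adjusted p = 0.999).

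Tfpi encodes tissue factor pathway inhibitor, which blocks the start of clotting and is made largely by endothelium in the adult. It read 172.8 and 194.6 in the knockout, 123.3, 135.2 and 144.2 in heterozygotes, and 144.8 and 100.1 in wild type. Heterozygous and wild-type pools overlapped, and the lower knockout pool was 1.19 times the highest of them. The knockout was 0.59 above wild type (SE 0.19, limma, adjusted p = 0.122) and 0.44 above heterozygotes (SE 0.17, adjusted p = 0.160). A second Tfpi probe set, 1451790_a_at, was 0.53 above wild type (adjusted p = 0.240 among probe sets). Another, 1452432_at, was below the filter at 44.7 and 39.6 in the knockout, 31.5, 31.8 and 27.3 in heterozygotes, and 33.8 and 32.4 in wild type.

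Spp2 encodes a secreted phosphoprotein that is related to the cystatins, is made by the liver and is stored in bone matrix. It read 68.5 and 115.7 in the knockout, 20.8, 39.8 and 21.0 in heterozygotes, and 66.2 and 14.6 in wild type. Wild-type replicate 1 almost reached knockout replicate 1, a ratio of 1.03 in favour of the knockout pool. Spp2 was 1.37 above wild type (SE 0.55, limma, adjusted p = 0.213) and 1.64 above heterozygotes (SE 0.50, adjusted p = 0.0840). The latter passed in a fit of those genotypes alone (adjusted p = 0.0228). Spp2 lay above the brightness filter only through the knockout pools, and with no filter its adjusted p was 0.321 and 0.154. Without wild-type replicate 1 its difference from wild type was 2.34, with an adjusted p of 0.0302, and without wild-type replicate 2 it was 0.41.

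**Figure D2:**
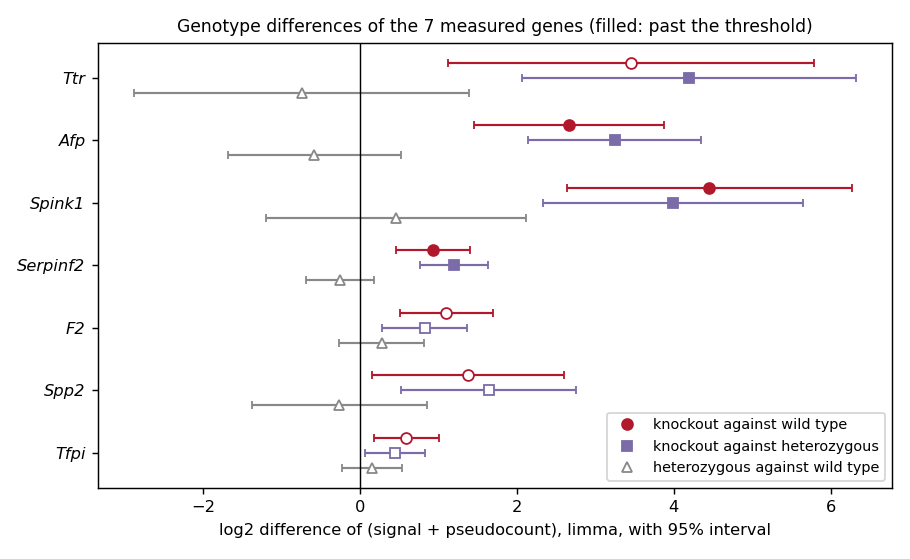
Log2 differences of (signal + pseudocount) with 95% intervals for the 7 genes in the 3 comparisons, with filled symbols for an adjusted p under 0.05. Spink1 has the largest difference between knockout and wild type (4.45), and the intervals between heterozygotes and wild type all include 0.

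Against wild type, 3 of the 7 measured genes passed the test, and over all genes past the filter 3.32% passed, 1.96% upward and 1.36% downward. Against heterozygotes 4 of the 7 passed, beside 5.86% of all genes, 3.11% upward and 2.76% downward. Both comparisons use the same 2 knockout pools, so they are not separate evidence. The choice of the genes with earlier results known also keeps these counts from being a test of the set. The median difference of the 7 genes was 1.37 against wild type and 1.64 against heterozygotes, and the medians over all genes were -0.01 and -0.02.

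These counts lean on the filter. Spink1, F2 and Spp2 lay above its limit only through the knockout pools, since their mean log2 signals over the other pools were 5.20, 5.13 and 5.01 and the limit was 5.25. With no filter and all 12393 genes tested, 0 of the 7 passed against wild type with limma, and 1.3% of all genes passed. All 7 had an unadjusted p under 0.05, as did 15.2% of all 12393 genes. Spink1 then had an adjusted p of 0.0501, Afp 0.0676, Serpinf2 0.0930, F2 0.114, Tfpi 0.174, Ttr 0.184 and Spp2 0.321. Against heterozygotes 3 of the 7 passed without the filter, beside 2.47% of all genes. These were Afp (adjusted p = 0.0195), Serpinf2 (0.0245) and Spink1 (0.0397), while Ttr had 0.0750.

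Between heterozygotes and wild type, limma's test passed 0 of the 7 genes, 0 of them at an unadjusted p under 0.05, and 0.0% of all genes passed. At an unadjusted p under 0.05 there were 284 of the 8019 genes, 3.54%. The median of the 7 genes was -0.26 and that of all genes 0.01, and 3 of the 7 differences were above 0. The intervals were wide for the genes that varied most between pools. They were -2.88 to 1.38 for Ttr, -1.69 to 0.53 for Afp and -1.20 to 2.12 for Spink1. Those of Ttr and Spink1 included a 2-fold difference in either direction. The interval of Tfpi was -0.23 to 0.53.

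Pools of the same genotype differed widely in 4 of these genes. The residual SD on the log2 scale was 1.67 for Ttr, 1.28 for Spink1, 0.85 for Afp and 0.80 for Spp2, at percentiles 99.9, 99.9, 99.5 and 99.4 of the 8019 genes. Among all 12393 genes, which include the dim and noisier ones, their percentiles were 99.9, 99.8, 97.1 and 96.0 in the same order. Serpinf2 (0.17), Tfpi (0.21) and F2 (0.21) lay at percentiles 51.8, 64.4 and 65.5 past the filter and 36.7, 46.2 and 47.0 among all genes. The more variable genes were also those with larger differences from wild type, except that Spp2 did not differ much more than F2.

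Spread was also counted for each genotype on its own, from brightest probe sets with the pseudocount added. Knockout pools differed at least 2-fold in 0 of the 7 genes. That is near the share of genes that did so, 1.01% past the filter and 7.31% of all genes. On the dimmer Afp probe sets 1436879_x_at and 1436881_x_at the knockout pools differed 2.26-fold and 8.78-fold. Heterozygous pools differed at least 2-fold in Ttr, Afp and Spink1, beside 3.18% of genes past the filter and 13.5% of all genes. Wild-type pools did so in Ttr, Afp, Spink1 and Spp2, beside 1.35% and 7.37%, and in all 4 of them wild-type replicate 1 was the higher pool, an order and size found in 0.786% of genes past the filter and 4.03% of all genes.

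The same pools led in gene after gene. Knockout replicate 2 was above replicate 1 in all 7 genes, as in 47.6% of genes past the filter and 49.1% of all genes. Heterozygous replicate 2 was the highest heterozygous pool in 5 of the 7, all but Serpinf2 and Tfpi, as in 33.0% and 34.4%. Wild-type replicate 1 was above replicate 2 in 6 of the 7, all but F2, as in 50.5% and 50.9%. The genes come from the same pools, so these orders are not separate observations. Summed over the 7 genes, signals were 4555 and 5895 in the knockout, 431.7, 1074.6 and 518.0 in heterozygotes, and 1617.1 and 401.7 in wild type.

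**Figure D3:**
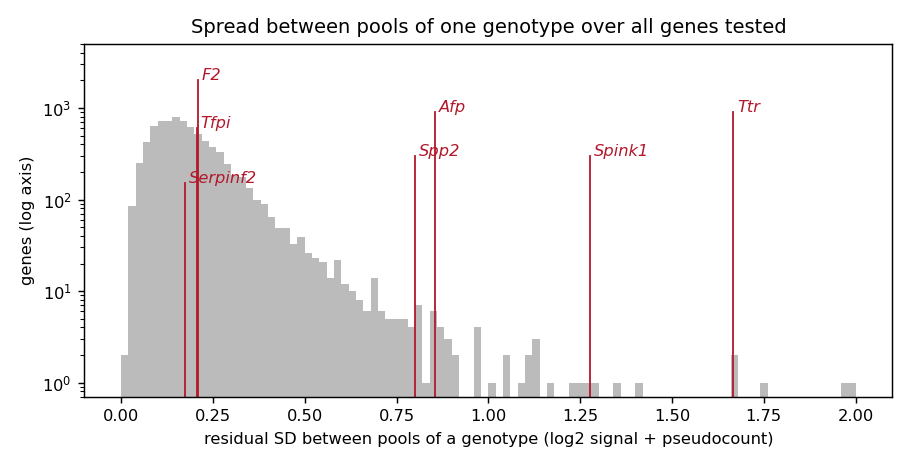
Residual SD between pools of one genotype on the log2(signal + pseudocount) scale for all 8019 genes past the filter, with gene number on a log axis and red lines at the 7 genes (line heights carry no meaning). Ttr at 1.67, Spink1 at 1.28, Afp at 0.85 and Spp2 at 0.80 lie in the far tail, and Serpinf2, Tfpi and F2 lie in the bulk.

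Pools also differed in sex-linked RNA. Summed signals of 4 Y-linked genes were 160.6 and 225.4 in the knockout, 133.8, 206.8 and 115.1 in heterozygotes, and 50.2 and 29.5 in wild type. Xist, transcribed from the inactive X chromosome, read 510.3 and 58.8 in the knockout, 595.0, 62.0 and 548.2 in heterozygotes, and 801.0 and 844.4 in wild type. The pools low in Xist were knockout replicate 2 and heterozygous replicate 2, which also had the highest summed plasma protein signals of their genotypes. In wild type Xist was high in both replicates, while the summed plasma protein signals were 1617.1 in replicate 1 and 401.7 in replicate 2. Y-linked Eif2s3y read 40.8 and 59.5 in the knockout, 28.2, 44.3 and 21.9 in heterozygotes, and 0.8 and 0.3 in wild type. Y-linked Kdm5d read 55.3 and 102.9 in the knockout, 46.7, 90.3 and 50.1 in heterozygotes, and 10.0 and 4.3 in wild type. Both wild-type pools were thus low in this RNA, although the sex was given as mixed. In comparisons with wild type, sex and genotype cannot be told apart. The part of sex in the differences between genotypes was not tested.

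The genes whose profiles lay nearest to these over the 7 pools were found by the root mean square difference of centred log2 signals, as a description that includes the genotype difference itself. Nearest to Afp was Rbp4, the plasma carrier of retinol, at 0.18. Rbp4 read 1669 and 1736 in the knockout, 100.6, 329.8 and 151.8 in heterozygotes, and 545.2 and 106.3 in wild type, with the same pools high and low as Afp. Nearest to Ttr were Apoc2 (0.63), an apolipoprotein, Rbp4 (0.64), the endocytic receptor genes Cubn (0.73) and Amn (0.75), and Apoa1 (0.81), the main protein of high-density lipoprotein. Cubn was also nearest to Spink1 (0.57).

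The less variable genes had neighbours of smaller range. Nearest to F2 was Fah, the last enzyme of tyrosine breakdown, at 0.10, with 68.1 and 94.5 in the knockout, 44.9, 44.8 and 44.3 in heterozygotes, and 41.5 and 40.2 in wild type. Nearest to Serpinf2 was Cyp26a1, which degrades retinoic acid, at 0.077. Nearest to Tfpi was Hhex, a homeobox gene of anterior endoderm and blood vessels, at 0.063, and nearest to Spp2 was the carbonic anhydrase gene Car4 at 0.30. Car4 read 627.8 and 625.0 in the knockout, 126.9, 282.0 and 210.7 in heterozygotes, and 357.1 and 114.2 in wild type.

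Other genes of clotting were mostly dim in these embryos. Of 18 further clotting factors and substrates 17 had a probe set and 1 passed the filter. This was F2r, the receptor cleaved by thrombin, at 0.06 above wild type (limma, adjusted p = 0.837). With no filter 1 of the 17 rose against wild type and 1 against heterozygotes. Both knockout pools were above all other pools in 4 of the 17, Fga, Fgb, Fgg and F10, beside 12.8% of all genes. Of 17 further clotting inhibitors and fibrinolysis genes 14 had a probe set, 3 passed the filter and 0 passed the test (limma, 0 at an unadjusted p under 0.05). Pros1, protein S, was 0.17 above wild type, Plaur, the urokinase receptor, 0.03 above, and Plat, tissue plasminogen activator, was 0.06 below it.

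Further plasma proteins that yolk sac endoderm or liver secretes went different ways. Of 30 listed, 25 had a probe set and 6 passed the filter, of which 1 rose, 1 fell and 4 did not pass, with a median of 0.07. Rbp4 rose by 2.79 against wild type (SE 0.65, limma, adjusted p = 0.0462), a call that was lost with no filter. Serpinf1, a serpin related to Serpinf2 and known as an inhibitor of vessel growth, fell by 1.13 (SE 0.20, adjusted p = 0.0159), with 123.0 and 124.0 in the knockout, 330.3, 257.9 and 280.6 in heterozygotes, and 220.2 and 345.0 in wild type. Alb, serum albumin and the main plasma protein of the adult liver, was below the filter at 29.5 and 14.7 in the knockout, 21.8, 22.7 and 5.4 in heterozygotes, and 15.6 and 23.5 in wild type.

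Because transferrin itself could not be read, genes of iron uptake and storage were followed. Of 13 listed, 11 passed the filter, 1 rose and 10 did not pass, with a median of 0.05. Slc40a1, ferroportin, which exports iron from cells, rose by 1.07 (SE 0.21, limma, adjusted p = 0.0227, a call lost with no filter) and read 97.8 and 104.2 in the knockout, 45.0, 40.3 and 51.2 in heterozygotes, and 44.2 and 48.3 in wild type. Tfrc, the transferrin receptor, named after its values were seen, was 0.07 below wild type (adjusted p = 0.816).

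Markers of visceral endoderm other than the plasma proteins were higher in the knockout too. Of 16 listed 14 passed the filter, 11 rose against wild type, 0 fell and 3 did not pass, and the median was 2.51. Of the 14, 5 (Apob, Apoc2, Cubn, Amn and Slc39a4) passed the filter only through the knockout pools. With no filter 10 of the 15 with a probe set rose and 0 fell. The study named genes of this kind from these same samples, so the direction of the list has no independent support here. All 15 with a probe set had both knockout pools above all other pools. Their summed signals were 5979 and 6951 in the knockout, 746.9, 1054.2 and 823.8 in heterozygotes, and 1459 and 654.1 in wild type, so that heterozygous replicate 2 and wild-type replicate 1 led their genotypes as they did for the plasma proteins. The part of visceral endoderm RNA in the differences of the 7 genes was not tested.

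Transcription factors of the endoderm regulate many plasma protein genes. Of 16 listed 8 passed the filter and 0 passed the test against wild type (limma, 4 at an unadjusted p under 0.05), with a median of 0.47. All 8 were above wild type. Of the 13 with a probe set 6 had both knockout pools above all other pools, beside 12.8% of all genes. Hnf4a, a nuclear receptor of visceral endoderm and liver, read 210.9 and 190.2 in the knockout, 15, 76.8 and 87.2 in heterozygotes, and 83.1 and 10.6 in wild type. It was 2.53 above wild type (adjusted p = 0.129), with wild-type replicate 1 again above replicate 2. Gata4 was 0.52 above wild type (adjusted p = 0.0971) and Foxa2 0.51 (adjusted p = 0.117).

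Markers of gut and liver bud inside the embryo that passed the filter were mostly higher in the knockout as well. Of 17 listed 10 passed the filter and 5 rose, the keratin genes Krt8 (1.46), Krt19 (1.35) and Krt18 (1.08), the tight junction gene Cldn6 (1.09) and the adhesion gene Epcam (0.72), which epithelia other than gut also express, and with no filter 3 rose. The other 5 did not pass, and Alb, Prox1, Shh, Pax9, Nkx2-1, Trh and Pdx1 were below the filter. Of the 10 past the filter 9 were above wild type, with a median of 0.90, and 1 passed the filter only through the knockout pools. In 10 of the 17 genes both knockout pools were above all other pools, beside 12.8% of all genes. Summed signals were 4949 and 5056 in the knockout, 3046, 3223 and 3588 in heterozygotes, and 3340 and 3401 in wild type. Their part in the differences of the plasma protein genes was not tested.

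Markers of other tissues around the embryo were followed too. For parietal endoderm, which lays down Reichert's membrane, summed signals of 9 genes were 2445 and 2428 in the knockout, 2534, 1997 and 2152 in heterozygotes, and 1894 and 2406 in wild type, and 0 of 7 genes past the filter passed the test (limma, 2 at an unadjusted p under 0.05). For trophoblast they were 665.6 and 728.3 in the knockout, 411.2, 350.8 and 440.1 in heterozygotes, and 475.8 and 344.0 in wild type. Of 3 trophoblast genes past the filter Plac8 rose, by 1.72 (limma, adjusted p = 0.0248), while the defining markers Prl7d1, Tpbpa, Ascl2, Elf5, Ctsq and Ctsj were below the filter. For decidua, the maternal lining, they were 302.6 and 400.5 in the knockout, 1100.0, 337.7 and 277.8 in heterozygotes, and 325.1 and 282.0 in wild type. Heterozygous replicate 1 stood apart there through the decidual prolactin gene Prl8a2, which read 46.1 and 138.4 in the knockout, 828.6, 37.6 and 27.4 in heterozygotes, and 37.4 and 16.2 in wild type. Of 5 decidua genes past the filter Wnt4, a signalling gene, fell by 1.26 against wild type (SE 0.28, limma, adjusted p = 0.0371) and fell by 1.23 against heterozygotes (adjusted p = 0.0213). With no filter neither Plac8 nor Wnt4 passed against wild type. The part of these tissues in the differences of the plasma protein genes was not tested.

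**Figure D4:**
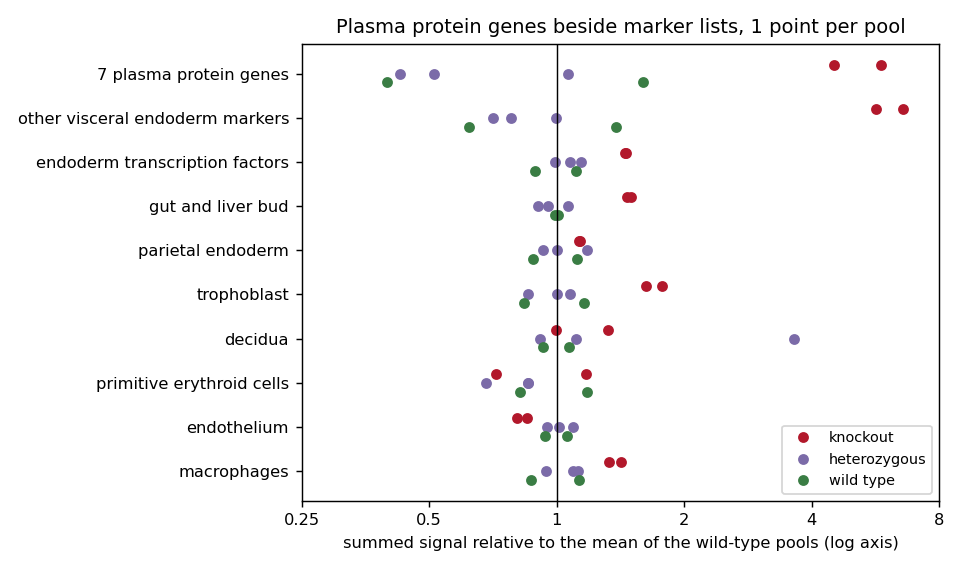
Summed signals of the 7 plasma protein genes and of marker lists, 1 point per pool, relative to the mean of the wild-type pools on a log axis. Knockout pools stand far to the right for the plasma proteins and the other visceral endoderm markers, and closer to the other pools in the remaining lists, with 1 heterozygous pool apart for decidua.

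For blood and vessels, primitive erythroid genes summed to 10445 and 16977 in the knockout, 12412, 9882 and 12434 in heterozygotes, and 11889 and 17143 in wild type, ranges that overlap. Of 10 endothelial genes 0 rose and Emcn, a vessel sialomucin, fell by 1.23 (SE 0.19, limma, adjusted p = 0.00848). Summed endothelial signals were 968.8 and 1024.8 in the knockout, 1316, 1139 and 1216 in heterozygotes, and 1274 and 1131 in wild type, with both knockout pools lowest. Macrophage genes, of which 1 of 9 passed the filter and 0 passed the test (limma, 0 at an unadjusted p under 0.05), summed to 273.2 and 291.4 in the knockout, 194.7, 231.6 and 225.5 in heterozygotes, and 179.2 and 232.6 in wild type, with both knockout pools highest. The part of blood and vessel cells in the differences of the 7 genes was not tested.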

How the data were processed

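The authors deposited MAS5 signals, 1 intensity per probe set and array on a linear scale, per the submitters' processing notes. MAS5 combines perfect-match and mismatch probes. The sources used here do not give its version, scaling target or genome build. The mean trimmed by 2% at each end was 150.0 to 150.1 on each array, so values are relative to the whole array. Of 22690 probe sets 64 were controls, 20380 had 1 gene symbol, 691 had several and 1555 were not listed.

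Genotypes and replicate numbers came from the sample titles. From the deposited intensities, log2(signal + 3.8) was computed, which understates changes of dim genes. A gene was read from its brightest probe set, and a brightness filter at the 40th percentile of mean log2 signals (a signal plus pseudocount of 38.1) left 8019 genes. All 7 arrays entered 1 limma 3.58.1 fit in R 4.3.3 with genotype as the term and an intensity trend in eBayes, with 4 residual and 6.19 prior degrees of freedom. Two-sided p-values were adjusted by Benjamini-Hochberg within each comparison. The fit was tried on simulated data with independent noise in each gene, which checks the code only. In these pools several genes moved together, a setting that the simulation did not cover.

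The genes and lists were chosen with earlier results of these data known. All 8 chosen genes were named, up to 4 genes per other list (those past the threshold first, then by size of difference), and the nearest profile of each gene, 5 for Ttr. Tfrc, Alb, Epcam, Prl8a2, Xist, the dim markers and the fibrinogen genes were added after their values were seen. Alternatives covered pseudocount, filter, normalization, trend, samples in the fit, array weights, replicate block, probe set choice, threshold and leaving out each array.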

Additional observations from a re-analysis of the deposited data

How the results depend on the processing

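The difference of every one of the 7 genes in both knockout comparisons kept its direction over 20 alternatives, in the 139 recomputed values that differed from the reported one; another 133 were identical by construction. The number of genes passing did not. Of the 7, 3 passed against wild type and 4 against heterozygotes. With no filter 0 passed against wild type (7 at an unadjusted p under 0.05, limma), out of more genes tested. With no intensity trend 2 passed against wild type, Serpinf2 and F2, while Afp (adjusted p = 0.0757) and Spink1 (0.0568) did not, and Ttr lost its call against heterozygotes (0.0834) and F2 gained one. Afp also lost its call against wild type with the median over probe sets (0.0836). With every probe set tested 2 passed against wild type and 3 against heterozygotes. There Serpinf2 lost its call against wild type (limma, adjusted p = 0.0580) and Ttr its call against heterozygotes (0.0508). With a filter at the 60th percentile only 3 of the 7 were left, and 1 passed against wild type and 2 against heterozygotes, with a median of 2.66 against wild type. Leaving out 1 array gave 0 to 4 genes passing against wild type and 0 to 5 against heterozygotes. Without knockout replicate 1 limma passed 0 in both comparisons, with 7 and 7 at an unadjusted p under 0.05, and without knockout replicate 2 also 0, with 5 and 4. These fits assume that the lone pool varies like the other genotypes. Against wild type 1 passed without heterozygous replicate 3 or wild-type replicate 2. Medians with 1 array left out were 1.01 to 2.34 against wild type and 1.28 to 2.001 against heterozygotes. The median between heterozygotes and wild type was -1.18 to 0.41 and turned positive, at 0.41, without wild-type replicate 1. The cause was not tested.

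Equal replicate numbers did not mark pools that deviated in the same direction from their genotype means. Deviations of same-numbered pools correlated at -0.05 between knockout and wild type, the same for both replicates by construction. They correlated at -0.00018 and 0.0047 between knockout and heterozygotes. Between heterozygotes and wild type the values were -0.29 and -0.28, and their source was not tested. With the replicate block 0 of the 7 passed against wild type and 0 against heterozygotes (limma, 6 and 7 at an unadjusted p under 0.05), and over all genes 72 and 76 passed.

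Over all genes, 266 passed against wild type and 470 against heterozygotes. These counts were 161 and 306 with no filter, 174 and 262 with no intensity trend, 562 and 962 at a threshold of 0.10, and 514 against wild type with array weights. Leaving out 1 array gave 36 to 417 against wild type and 67 to 545 against heterozygotes. Groups of 2 or 3 pools were not tested for outliers.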

Other observations

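The fibrinogen genes, named after their values were seen, were below the brightness filter over all arrays but were measured in the knockout pools. Fibrinogen is the plasma protein that F2's product cleaves to form a clot. Fgb, its beta chain, read 76.5 and 99.2 in the knockout, 0.9, 1.8 and 1.7 in heterozygotes, and 6.1 and 1.7 in wild type, with no overlap. Fga, its alpha chain, read 87.3 and 108.8 in the knockout, 1.7, 31.2 and 19.2 in heterozygotes, and 30.8 and 1.3 in wild type. Fgg, its gamma chain, read 90.7 and 143.3 in the knockout, 2.6, 20.8 and 25.3 in heterozygotes, and 22.3 and 4.4 in wild type. In all 3 genes both knockout pools were above the other 5, as in 12.8% of all genes. Tested with no filter, Fgb passed against wild type (limma, adjusted p = 0.00536) and against heterozygotes (adjusted p = 0.00147). Fga did not pass against wild type (limma, adjusted p = 0.197) or heterozygotes (0.166). Neither did Fgg, with 0.104 against wild type and 0.0775 against heterozygotes. No fold is given, because the heterozygous and wild-type signals of Fgb lie near or below the pseudocount of 3.8, which then sets its size. In Fga and Fgg wild-type replicate 1 was again the higher wild-type pool, as it was for Ttr and Afp.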
